A study of Homo sapiens with 5 samples.

Results

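Genes of hepatic glucose production and their regulators were examined in 5 CUT&Tag peak lists from HepG2 cells, a human liver cancer line. The set held 10 of the 20037 protein-coding genes of the RefSeq annotation and was chosen by function, with earlier results of these data known. It comprised the enzyme genes PC, PCK1, PCK2, FBP1, G6PC1 and TAT and the regulator genes PPARGC1A, FOXO1, CREB1 and CRTC2. For each list, peaks were taken within 1 kb of either end of a gene, elsewhere inside the gene, and up to 20 kb outside it. In CUT&Tag an antibody brings a transposase to its target on chromatin, and a peak is a stretch where tagged fragments exceed the local background. The libraries profiled Flag-tagged wild type ENL, Flag-tagged ENL with the Y78A substitution, and acetylated (H3K9ac), β-hydroxybutyrylated (H3K9bhb) and crotonylated (H3K9cr) lysine 9 of histone H3. The design text names a stable Flag-ENL line for the Flag and H3K9bhb profiles. It leaves unstated which cells gave the H3K9ac and H3K9cr libraries, the promoter and level of the transgene, the number of clones and any addition of β-hydroxybutyrate. Each group had 1 library, so no difference between libraries was tested and a place with no listed peak is not a place with no signal.

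Gluconeogenesis makes glucose from lactate, glycerol and amino acids, and in the fasted liver it keeps blood glucose up. Pyruvate carboxylase (PC) and the phosphoenolpyruvate carboxykinases (PCK1 in the cytosol, PCK2 in mitochondria) open the pathway. Fructose-1,6-bisphosphatase (FBP1) and the catalytic subunit of glucose-6-phosphatase (G6PC1) close it, and tyrosine aminotransferase (TAT) feeds amino acid carbon into central metabolism. Glucagon acts through cyclic AMP on CREB1 and its coactivator CRTC2, insulin restrains FOXO1, and the coactivator PGC-1α (PPARGC1A) joins these inputs. ENL belongs to complexes that promote transcription elongation, and its YEATS domain binds acylated lysines. Y78A replaces a tyrosine of that binding pocket with alanine. β-hydroxybutyrate is a ketone body that the liver releases during fasting.

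The starts of 5 of these genes are printed because the lists divide them. PC and PCK2 had a wild type ENL, Y78A, H3K9bhb and H3K9ac peak there, CREB1 had wild type ENL, H3K9bhb and H3K9ac, FOXO1 had H3K9ac alone, and G6PC1 had none. The bases are those before the annotated start and outside the annotated gene, 5′ to 3′ on the gene's strand, as RefSeq gives them for GRCh38.p14 (hg38). Capitals mark matches to the searched motifs.
PC, chr11:66958384-66958633, minus strand: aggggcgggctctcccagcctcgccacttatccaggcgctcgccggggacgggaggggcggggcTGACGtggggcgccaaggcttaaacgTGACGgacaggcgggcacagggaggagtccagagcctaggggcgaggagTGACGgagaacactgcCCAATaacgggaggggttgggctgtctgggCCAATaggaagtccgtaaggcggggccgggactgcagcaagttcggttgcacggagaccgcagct
PCK2, chr14:24094061-24094170, plus strand: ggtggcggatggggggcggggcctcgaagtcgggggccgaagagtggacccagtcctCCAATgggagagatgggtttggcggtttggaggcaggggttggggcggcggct
CREB1, chr2:207529712-207529961, plus strand: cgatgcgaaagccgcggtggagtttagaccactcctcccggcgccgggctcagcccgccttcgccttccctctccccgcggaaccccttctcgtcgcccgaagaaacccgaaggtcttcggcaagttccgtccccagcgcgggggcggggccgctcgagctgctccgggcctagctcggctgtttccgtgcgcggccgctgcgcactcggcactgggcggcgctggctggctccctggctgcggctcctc
FOXO1, chr13:40666642-40666891, minus strand: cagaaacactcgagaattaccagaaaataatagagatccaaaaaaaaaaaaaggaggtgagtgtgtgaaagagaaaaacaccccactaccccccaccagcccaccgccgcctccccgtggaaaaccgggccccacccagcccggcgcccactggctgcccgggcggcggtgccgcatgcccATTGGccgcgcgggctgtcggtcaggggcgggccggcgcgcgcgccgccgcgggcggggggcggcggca
G6PC1, chr17:42900549-42900798, plus strand: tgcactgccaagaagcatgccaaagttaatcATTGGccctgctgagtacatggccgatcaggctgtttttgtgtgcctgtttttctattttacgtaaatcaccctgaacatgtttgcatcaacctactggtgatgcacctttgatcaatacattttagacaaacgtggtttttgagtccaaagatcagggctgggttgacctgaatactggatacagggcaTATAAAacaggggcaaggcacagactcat
The promoter table had entries for 7 of the 10 genes, in 10 windows of 300 bases, and none for PCK1, TAT and CRTC2. PC carried 3 matches to TGACG, the core of the cyclic AMP response element, at 186, 160 and 111 bases before its start. Such a match was in 2 of the 10 windows, of PC and PPARGC1A, and in 24.6% of 35116 RefSeq windows of that length. The full element TGACGTCA, which contains TGACG, was in none of the 10 windows and in 1.85% of all. CCAAT was in 5 of the 10 windows and in 34.6% of all, and TATAAA was in G6PC1 only among the 10, and in 11.5% of all. GTAAACA, the core bound by FOXO and FOXA factors, was in none of the 10 and in 3.42% of all. Both strands were searched. The 5 starts also differed in base composition. Over the 300 bases, G and C made up 67.7% at PC, 71.7% at PCK2, 73.3% at CREB1 and 68.0% at FOXO1, against 45.7% at G6PC1 and a median of 58.7% over all windows. The dinucleotide CG occurred 25, 23, 39 and 33 times at PC, PCK2, CREB1 and FOXO1 and 3 times at G6PC1. FBP1, with no peak at a gene end, had 72.7% G and C and 32 CG dinucleotides.

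The standard chromosomes held 11394 wild type ENL peaks, 5422 Y78A, 9176 H3K9bhb, 31493 H3K9ac and 3852 H3K9cr peaks. Read totals are unknown. The H3K9ac and H3K9cr lists reach down to a −log10 q of 1.31 and 1.34, and the other 3 stop at 2.02 to 2.05. As a check of the tissue label, H3K9ac lay at a gene end of 3 of 7 liver marker genes (APOA1, APOB and HNF4A) and not of ALB, AFP, TTR or SERPINA1, against 56.4% of all protein-coding genes. Counting any H3K9ac peak within 20 kb, 6 of the 7 had one, against 75.6% of all genes. These H3K9ac counts do not set the markers apart from other genes. Any wild type ENL peak was at 6 of the 7 (49.7% of all genes) and any Y78A peak at 6 (28.8%). Any H3K9bhb peak was at 3 (44.5%) and any H3K9cr peak at 1 (15.1%). None of these differences was tested. TTR had no peak in any list within 20 kb.

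Wild type ENL had a gene-end peak at 4 of the 10 genes, PC, PCK2, TAT and CREB1, and H3K9bhb had one at the same 4. These peaks lay at the starts of PC, PCK2 and CREB1 but at the downstream end of TAT. A gene-end peak was present at 28.6% of all protein-coding genes for wild type ENL and at 23.8% for H3K9bhb. Y78A had a gene-end peak at PC and PCK2, 2 of 10, against 14.6% of all genes. H3K9ac was at those 4 genes and at FOXO1 and CRTC2, 6 of 10 against 56.4%. H3K9cr was at none of the 10, against 4.49%. These shares are close to the background for a set of 10 genes and are not read as a result about the set. PCK1, FBP1, G6PC1 and PPARGC1A, 4 of 10, had no gene-end peak in any list, as did 42.8% of all genes. With each list limited to its 3852 peaks of highest −log10 p, H3K9bhb remained at 2 of the 10 gene ends (PCK2 and CREB1) and H3K9ac at 1 (CREB1), while wild type ENL was at 3 (PC, PCK2 and CREB1) and Y78A at 2.

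**Figure D1:**
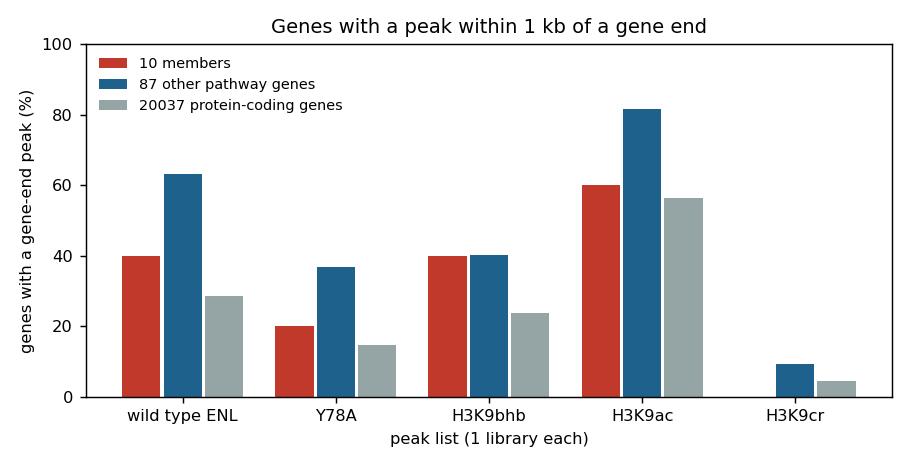
Bars give the percentage of genes with a peak within 1 kb of a gene end (vertical axis) in each of the 5 lists (horizontal axis), for the 10 genes of glucose production, the 87 other pathway genes and all 20037 protein-coding genes. Of the 10 genes, 4 had wild type ENL, 2 Y78A, 4 H3K9bhb, 6 H3K9ac and none H3K9cr. Of the 87 genes, 63.2% had wild type ENL, against 28.6% of the 20037.

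PC, whose product makes oxaloacetate from pyruvate, had the strongest ENL peaks of the set. The gene spans chromosome 11 (hg38, 66848420 to 66958383) on the minus strand, and the peaks lay at its upstream start. The wild type ENL peak (66958248 to 66958839) had an authors' fold of 9.21 and a −log10 p of 31.8. Its summit held 45 fragments (95% exact Poisson interval 32.8 to 60.2, counting error only) over a background of 3.99. By fold it was 45th of the 5734 genes with a wild type ENL peak at a gene end. The Y78A peak at the same place had a fold of 7.84 and 30 summit fragments (interval 20.2 to 42.8), 113th of 2934 genes. The H3K9bhb peak had a fold of 4.81 and 21 fragments (interval 13.0 to 32.1), and 40.5% of the 4766 genes with H3K9bhb had a lower fold. The H3K9ac peak had a fold of 4.08 and 46 fragments over a higher background of 10.5. PC thus stood near the top of both ENL lists and in the middle range of the lists of both marks.

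The summits at PC nearly coincided. Wild type ENL, Y78A, H3K9bhb and H3K9ac peaked 194, 190, 186 and 124 bp before the start, all among the printed bases. Wild type ENL and Y78A summits were 4 bp apart, against a median of 52.0 bp over 4892 overlapping wild type peaks, and wild type ENL and H3K9bhb summits were 8 bp apart, against a median of 57.0 bp over 6811. The rest of PC carried 3 peaks of H3K9ac and 1 of wild type ENL, none at the same place. An H3K9ac peak with a fold of 3.06 (66906216 to 66906686) had its summit 510 bp before an internal annotated start of PC. The internal wild type ENL peak (66902196 to 66902445) had a fold of 3.87 and 18 summit fragments, and only 11.7% of that list had a lower −log10 p. An H3K9ac peak near the other end lay 683 bp before the start of LRFN4, a gene inside PC. Outside PC, H3K9ac had a peak of fold 3.24 at ends of TOP6BL and RCE1 and another of fold 3.25, 12645 bp before the gene.

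PCK2, the mitochondrial carboxykinase, had the same 4 lists at its start, with low folds. The gene lies on the plus strand of chromosome 14 (24094171 to 24104125). For wild type ENL the fold at the start was 4.01, and 13.4% of genes with a gene-end peak had a lower one. Y78A had 4.05 (8.04% lower), H3K9bhb 3.70 (8.81% lower) and H3K9ac 3.18 (27.0% lower). Summit fragments were many, and so was the local background. Wild type ENL had 43 fragments over 9.96, Y78A 30 over 6.66, H3K9bhb 41 over 10.3 and H3K9ac 76 over 23.2. PCK2 and PC therefore had similar wild type ENL fragments at the summit (43 and 45) with backgrounds of 9.96 and 3.99. Wild type ENL and H3K9bhb had the same summit base, 2 bp before the annotated start, and Y78A peaked 138 bp before it.

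Most further peaks at PCK2 lay beside starts of other genes. The exceptions were 2 H3K9ac peaks of folds 2.53 and 2.33, at 12676 and 12216 bp before the gene, whose summits were 9741 and 10317 bp from the nearest start in the promoter table, that of CPNE6. A peak inside the gene, just beyond the 1 kb window, was present in wild type ENL (24095436 to 24095889, fold 4.33, 46 fragments), Y78A (fold 3.77, 29 fragments) and H3K9bhb (fold 3.07, 35 fragments). Its summits were 560, 545 and 424 bp before an internal start of NRL, a gene of the opposite strand that spans PCK2. The H3K9ac peak at the PCK2 start, 1890 bp wide, covered this place too. A broad site 9605 bp or more beyond PCK2, where NRL and DCAF11 have their starts, was the only one near the 10 genes with a peak in all 5 lists. The folds there were 4.80 for wild type ENL, 4.36 for Y78A, 4.13 for H3K9bhb, 2.64 for H3K9ac and 3.03 for H3K9cr. That H3K9cr peak, at the ends of NRL and DCAF11 and not of PCK2, was the single H3K9cr peak within 20 kb of any of the 10 genes.

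**Figure D2:**
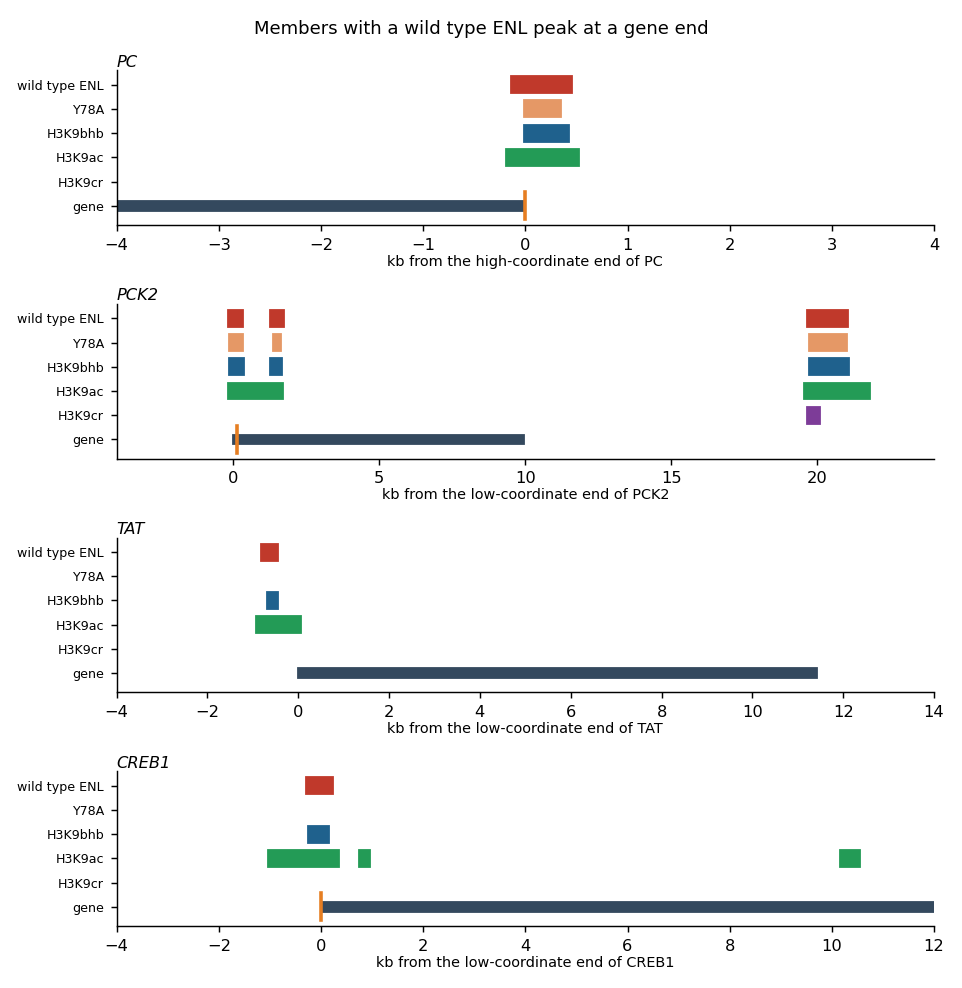
Peaks of the 5 lists (coloured bars, rows) around PC, PCK2, TAT and CREB1, by distance in kb from the named gene end in chromosome direction, with the gene as a dark bar and annotated starts as orange lines. Parts of PC and CREB1 lie beyond the frame, TAT has no start in the table, and the peaks of wild type ENL and H3K9bhb overlap at one end of each gene, while Y78A is listed at PC and PCK2 only.

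CREB1, which encodes the cyclic AMP response element binding protein, had strong peaks of both marks and no Y78A peak. It lies on the plus strand of chromosome 2 (207529962 to 207605988). The H3K9bhb peak at its start (207529710 to 207530123) had a fold of 8.42 and a −log10 p of 19.7, and by fold it was 59th of 4766 genes. Its summit held 26 fragments (interval 17.0 to 38.1) over a background of 2.20. The H3K9ac peak there was 1401 bp wide with a fold of 4.91 and 85 fragments (interval 67.9 to 105). By −log10 p it was 232nd of 31493 peaks. By fold it was only 2435th of 11305 genes with H3K9ac at a gene end, 78.5% of which had a lower fold. The wild type ENL peak (207529666 to 207530193) had a fold of 6.27 and 23 fragments (interval 14.6 to 34.5), and 75.4% of genes with such a peak had a lower fold. H3K9bhb and H3K9ac peaked 24 and 35 bp before the start and wild type ENL 100 bp after it. The nearest Y78A peak to CREB1 was 105 kb away. H3K9ac had 3 further peaks at CREB1, at 821 bp and 10482 bp after the start and at the start of METTL21A.

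TAT, a classical gene of fasting and glucocorticoid response, had wild type ENL, H3K9bhb and H3K9ac peaks at its low-coordinate end. The gene spans chromosome 16 from 71565660 to 71577092. The wild type ENL peak (71564837 to 71565212) had a fold of 6.45 and 19 fragments (interval 11.4 to 29.7) over 2.10. The H3K9bhb peak (71564974 to 71565208) had a fold of 5.71 and 18 fragments (interval 10.7 to 28.4) over 2.33, and its summit was 5 bp from that of wild type ENL. These 2 peaks lay 448 and 452 bp outside the gene, and the H3K9ac peak (71564737 to 71565726), of fold 4.31 with 24 fragments over 4.80, reached into it. The summits lay 52, 57 and 101 bp after an annotated plus-strand start of TAT-AS1, a noncoding gene antisense to TAT. The low-coordinate end is therefore the downstream end of TAT, and these peaks do not mark its start. They lay beside the start of TAT-AS1 and cannot be assigned to TAT. No list had another peak at TAT within 20 kb, and the nearest Y78A peak was 318 kb away. With lists limited to 3852 peaks, TAT had no peak in any list.

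Wild type ENL without Y78A at a gene end occurred at 2 of the 10 genes, TAT and CREB1, and at 14.4% of all genes. Wild type ENL with H3K9bhb occurred at 4 of 10 and at 20.4% of all. Whether a Y78A peak is listed goes with the strength of the wild type peak. The wild type list was divided by −log10 p into 4 parts of equal size. From the weakest part to the strongest, Y78A overlapped 286 of 2849, 613 of 2848, 1477 of 2848 and 2516 of 2849 peaks. The peaks at TAT and CREB1 were in the part next to the strongest, together with the PCK2 start and a peak inside FOXO1, which had Y78A. The 3 wild type peaks in the strongest part, at PC and at 2 places by PCK2, all had Y78A, and the 6 in the weaker parts had none. In the part that held the TAT and CREB1 peaks, 51.9% of wild type peaks were overlapped by Y78A and the rest were not. A missing Y78A peak was thus frequent at that strength, and the effect of the substitution at these genes was not tested.

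**Figure D3:**
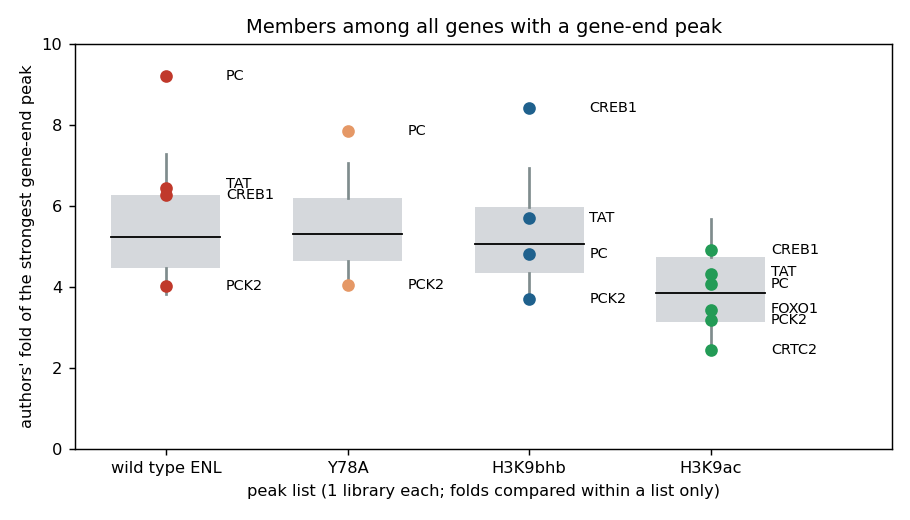
Points give the authors' fold (vertical axis) of the strongest gene-end peak of each gene in 4 lists (horizontal axis), over the spread of all genes with such a peak (grey box, middle 50%; black line, median; whiskers, 10th to 90th percentile). PC stands above the whisker in wild type ENL and Y78A and CREB1 in H3K9bhb, while PCK2 lies below the box in wild type ENL, Y78A and H3K9bhb.

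FOXO1, the forkhead factor that insulin excludes from the nucleus, had only H3K9ac at its start and ENL far from it. The gene lies on the minus strand of chromosome 13 (40555667 to 40666641). H3K9ac had 2 gene-end peaks, with folds of 3.42 and 2.79 and 55 and 44 fragments, whose summits lay 1102 and 361 bp after the start, and a further peak was 2275 bp after it. The ENL peaks were inside the gene near its 3′ end. One (40564471 to 40564783) had a fold of 5.64 and 26 fragments in wild type ENL and a fold of 5.43 and 19 fragments in Y78A, with summits 14 bp apart and no mark listed. A weaker one beside it (40563547 to 40563903) had a fold of 3.73 in wild type ENL, 3.55 in H3K9bhb and 3.23 in H3K9ac, with no Y78A. A site 18449 bp beyond the gene, just inside the 20 kb limit, had folds of 4.56 in wild type ENL, 4.51 in H3K9bhb and 3.31 in H3K9ac. The nearest start in the promoter table was at least 55689 bp from each of these 3 places.

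PPARGC1A, which encodes PGC-1α, had scattered peaks that no 2 lists shared. The annotated gene is 681 kb long on the minus strand of chromosome 4 (23792021 to 24472905), and a long gene has more room for a peak. Its starts in the promoter table are the upstream 24472905 and the internal 23881101. All peaks inside the gene had summits within 16312 bp of the internal start, and the upstream start had no peak. Whether any of the inside peaks lay at a start absent from that table was not determined. H3K9ac had 3 peaks between 7542 and 8906 bp before the internal start, the strongest (23889813 to 23890235) with a fold of 6.43 and 31 fragments. Wild type ENL had a peak of fold 5.68 with 12 fragments, 3177 bp after that start. H3K9bhb had 1 inside the gene, of fold 5.24 with 11 fragments, 16312 bp after the start, and 1 of fold 4.53 with 9 fragments, 3221 bp outside the gene. Of the wild type ENL and H3K9bhb lists, 26.6%, 18.7% and 2.51% of peaks had a lower −log10 p than these 3, which are therefore weak entries.

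The 3 enzyme genes without a gene-end peak differed in what lay near them. G6PC1 (chromosome 17, 42900799 to 42914438, plus strand) had no H3K9bhb or Y78A peak within 20 kb. Wild type ENL had 2 peaks there, of fold 4.26 with 21 fragments 13718 bp before the gene and of fold 4.70 with 12 fragments 14716 bp beyond it. The latter overlapped an H3K9ac peak of fold 3.50, and other H3K9ac peaks, of folds 2.74 and 4.23, lay 2147 bp before and 5792 bp beyond the gene. FBP1 (chromosome 9, 94603133 to 94640263, minus strand) had a single site, inside the gene and 31062 bp from its annotated start. There an H3K9bhb peak (94608366 to 94608798) of fold 4.70 with 17 fragments overlapped an H3K9ac peak of fold 3.22 with 19 fragments. PCK1 (chromosome 20, 57561110 to 57568121) had no peak in any list within 20 kb. The nearest to PCK1 were H3K9ac at 30.8 kb, H3K9bhb and wild type ENL at 125 kb each, H3K9cr at 443 kb and Y78A at 821 kb.

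CRTC2, the coactivator of CREB1, had H3K9ac and nothing else within 20 kb. The gene spans chromosome 1 from 153947675 to 153958612. Its 2 gene-end peaks had folds of 2.45 and 2.26 with 43 and 53 fragments over backgrounds of 17.0 and 22.9, and only 6.92% of genes with H3K9ac had a lower strongest fold. One also lay at an end of DENND4B, with its summit 77 bp after an annotated start of that gene. The other also lay at an end of SLC39A1, but its summit was 15 bp beyond the high-coordinate end of CRTC2. The nearest start in the promoter table, that of SLC39A1, was 4910 bp from this summit. CRTC2 has no start in that table, so which of its ends is the start was not determined. Neither peak lay at an end of CRTC2 alone. Outside the gene H3K9ac had 5 further peaks. The strongest, of fold 3.58, lay at an end of JTB. Those of folds 2.69 and 2.02 lay at ends of DENND4B and of SLC39A1 and CREB3L4. Those of folds 1.90 and 2.46 had summits 888 and 75 bp from a start of SLC39A1. The nearest wild type ENL, Y78A and H3K9bhb peaks were 24.4, 24.4 and 24.5 kb away, just outside the 20 kb limit. With peaks of −log10 q of at least 5, CRTC2 had no gene-end peak, and H3K9ac was at 5 of the 10 genes.

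**Figure D4:**
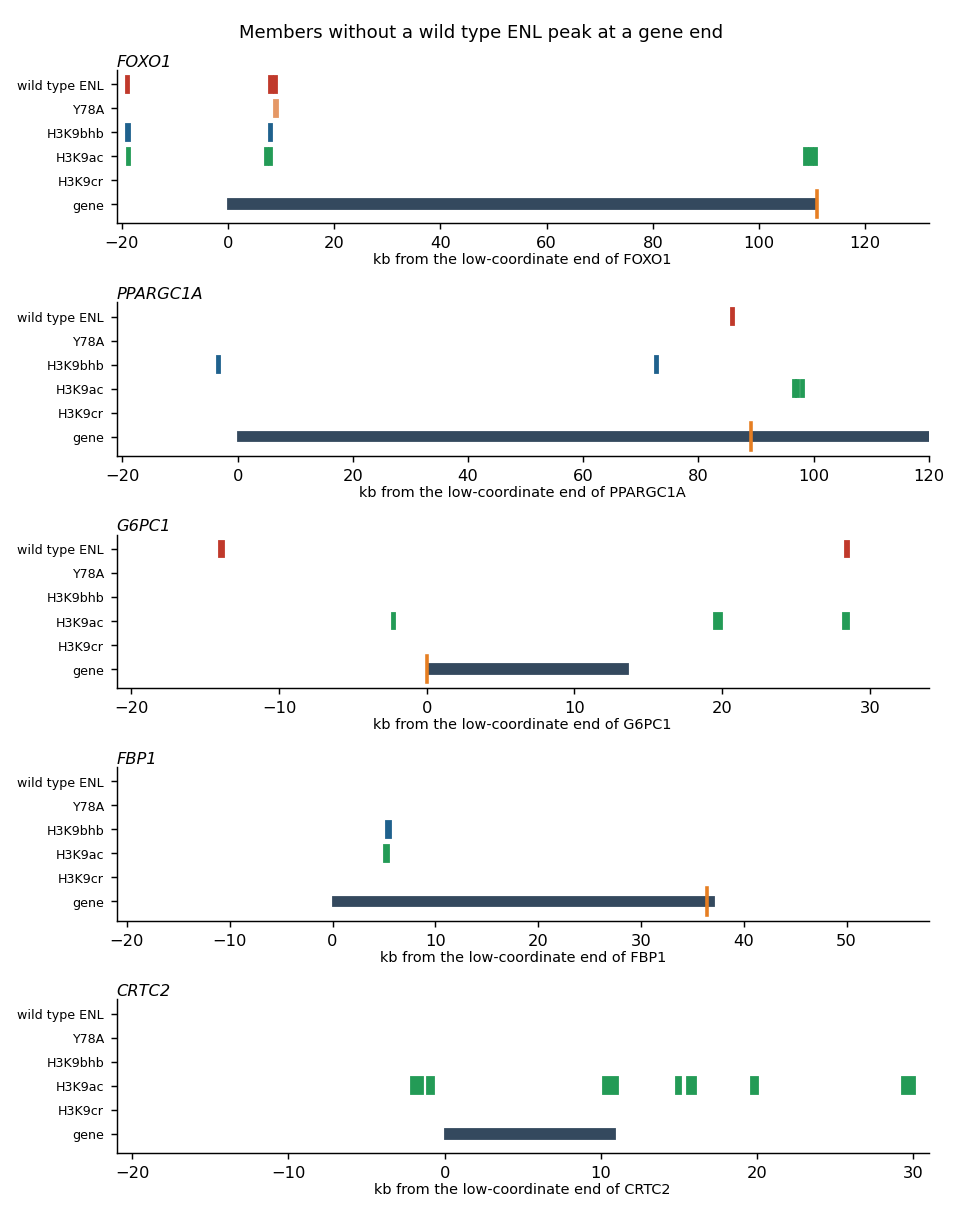
Peaks of the 5 lists (coloured bars, rows) around FOXO1, PPARGC1A, G6PC1, FBP1 and CRTC2, by distance in kb from the low-coordinate end in chromosome direction, with the gene as a dark bar and annotated starts as orange lines. Narrow peaks are widened to stay visible, the upper part of PPARGC1A lies beyond the frame, and Y78A has a single peak, inside FOXO1.

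Away from gene ends the sets also overlapped in part. Inside the gene, wild type ENL had a peak at 4 of the 10 genes (11.5% of all genes), Y78A at 2 (5.65%), H3K9bhb at 4 (10.3%), H3K9ac at 5 (28.0%) and H3K9cr at none (5.13%). These counts include the 3 members of the set longer than 100 kb, PC, FOXO1 and PPARGC1A, and all-gene shares were not adjusted for length. Up to 20 kb outside the gene, wild type ENL was at 3 (26.4%), Y78A at 1 (14.1%), H3K9bhb at 3 (22.0%), H3K9ac at 6 (51.8%) and H3K9cr at 1 (6.78%). Any peak was found for wild type ENL at 7 (49.7%), Y78A at 3 (28.8%), H3K9bhb at 7 (44.5%), H3K9ac at 9 (75.6%) and H3K9cr at 1 (15.1%). In all there were 65 peaks, of which 35 were H3K9ac, 13 wild type ENL, 11 H3K9bhb, 5 Y78A and 1 H3K9cr. They formed 41 separate places, 26 of them with H3K9ac alone. Of the 65 peaks, 13 also lay at an end of another protein-coding gene. By nearest annotated start, 34 of the 65 had a summit within 1 kb of one. That start was the gene's own for 14 and another gene's, coding or not, for 20. Peaks at TAT and CRTC2 could count only among the 20, because the promoter table lacks starts for these genes.

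At the level of peaks, overlap near the 10 genes resembled that of the whole lists. H3K9bhb overlapped 8 of the 13 wild type ENL peaks (61.5%, against 59.8% of 11394), H3K9ac 9 (69.2%, against 78.9%) and Y78A 5 (38.5%, against 42.9%). Wild type ENL overlapped 8 of the 11 H3K9bhb peaks (72.7%, against 74.7% of 9176) and all 5 Y78A peaks (91.3% of 5422). The wild type ENL peaks without a listed mark were the internal ones of PC and PPARGC1A, the one shared with Y78A in FOXO1 and the upstream one of G6PC1.

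**Figure D5:**
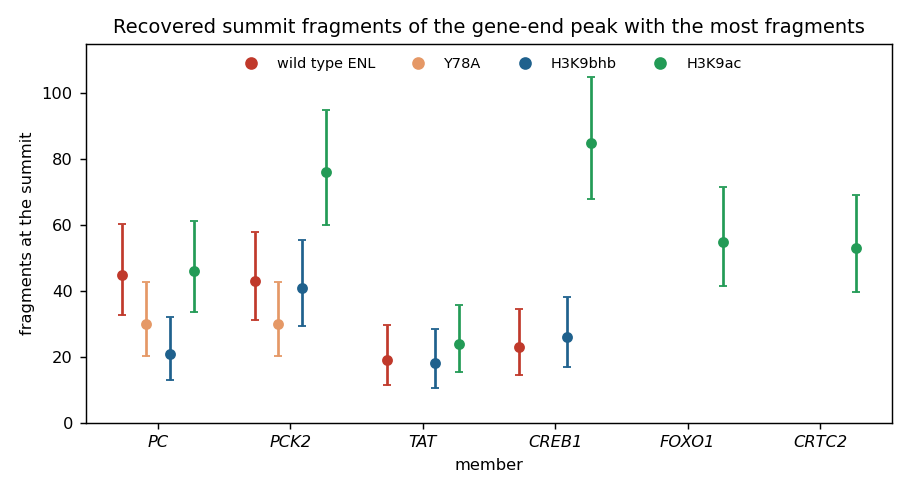
Fragments at the summit (vertical axis), recovered from the deposited fold and −log10 p, for the gene-end peak with the most fragments of each gene (horizontal axis) in 4 lists; bars are 95% exact Poisson intervals for counting error only. Wild type ENL held 45 fragments at PC and 43 at PCK2, against 19 at TAT and 23 at CREB1, and depth differs between lists, so levels are comparable within a colour only.

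A list of 87 further genes of glucose output, glycolytic steps, substrate supply, transcription and hormone signalling was counted in the same way. Wild type ENL was at a gene end of 55 (63.2%, against 28.6% of all genes), Y78A at 32 (36.8%, against 14.6%), H3K9bhb at 35 (40.2%, against 23.8%), H3K9ac at 71 (81.6%, against 56.4%) and H3K9cr at 8 (9.20%, against 4.49%). The list mixes liver genes with genes active in most cells and was chosen with earlier results known, and these differences were not tested. All 35 with H3K9bhb also had wild type ENL and H3K9ac, as did 4047 of the 4766 genes with H3K9bhb in the whole annotation. Genes that supply substrate, such as those of pyruvate carriers and aminotransferases, numbered 16, of which 13 carried wild type ENL and 12 H3K9bhb, whereas genes of glucose output and glycogen carried them at 4 and 2 of 10. Transcription factor and coactivator genes had them at 15 and 7 of 25, hormone and kinase genes at 16 and 9 of 23, and glycolytic genes at 7 and 5 of 13. The groups were not tested against each other.

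The highest wild type ENL folds in that list were 8.68 at EP300, an acetyltransferase and CREB1 coactivator, 7.51 at PRKACA, the catalytic subunit of protein kinase A, and 7.45 at CREM, a relative of CREB1. MDH1 (malate dehydrogenase) stood at 7.33, GPI (glucose-6-phosphate isomerase) at 7.24 and MPC2 (a pyruvate carrier subunit) at 6.65. All 6 had Y78A as well, and PRKACA alone of them had no H3K9bhb. H3K9bhb was highest at MPC2 with 6.81, CREM with 6.68, GK (glycerol kinase) with 6.36 and SESN1 (a stress-response sestrin) with 6.07. The pattern of TAT and CREB1, wild type ENL with H3K9bhb and H3K9ac alone, occurred at 1401 genes (6.99%), among them SIK2, an inhibitory kinase of CRTC proteins, PRKAR1A, a regulatory subunit of protein kinase A, and MDH2. The pattern of PC and PCK2, these 3 lists and Y78A, occurred at 1847 genes (9.22%), among them EP300, MPC2 and PGAM1.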

How the data were processed

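Peaks of 5 CUT&Tag libraries of HepG2 cells, 1 per group by sample title, were analysed. FastQC, Bowtie2, MACS2, deepTools and hg38 are named without versions or roles, per the submitters' processing notes. A control library, filters and depth were not given in the sources used. The deposited lists have the narrowPeak layout. The deposited fold is a ratio of summit signal to background, the deposited p and q are −log10 values, and the deposited score follows the −log10 q. Peaks on the 24 standard chromosomes were used.

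A peak was put at a gene end (overlap of at least 1 bp with 1 kb around either end), else inside the gene, else within 20 kb outside, for the 20037 protein-coding genes of RefSeq GRCh38.p14 (all 10 genes and all 87 further genes matched by symbol). Summit fragments were the whole number that reproduced fold and −log10 p within a relative tolerance of 3e-05, with 1 added to signal and background in the fold, which held for at least 99.98% of each list. On simulated data both steps were right for 100% of 2000 cases. The simulated folds and −log10 p came from the same formula that the recovery inverts. Their backgrounds spanned a narrower range than those of the described peaks. Intervals are 95% exact Poisson and cover counting error only. Folds and ranks describe peaks within a list. No test between libraries was possible. Motifs searched on both strands of RefSeq promoter windows (250 bases before to 50 after a start) were the cyclic AMP response element TGACGTCA and its core TGACG, the forkhead core GTAAACA, the NFY box CCAAT, the TATA box TATAAA, the C/EBP site TTGCGCAA and the DR1 and glucocorticoid response elements. The last 3 had no match in the 10 windows, and 53, 8 and 1 of 35116 windows had one. A further motif is not reported here. The table's windows on opposite strands read as reverse complements in 2700 of 2700 overlaps.

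The genes and lists were chosen with earlier results of these data known. All 10 genes were described in every list. Of the 87, the 6 highest wild type ENL folds, the 4 highest H3K9bhb folds and up to 3 genes per shared pattern were named, and other genes where a peak lay at their ends or starts. Liver markers and nearest annotated starts were added after the data were seen. Alternatives changed the window, the distance, the overlap rule, the threshold and the list length. Python 3.11.15, pandas 2.3.3 and scipy 1.17.1 were used.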

Additional observations from a re-analysis of the deposited data

How the results depend on the processing

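No paired analysis was possible because each group had 1 library and no result came from a test. Of 187 recomputed counts, 160 stayed within 1.5 times the reported one and 27 did not. With each list limited to its 3852 peaks of highest −log10 p, wild type ENL was inside 2 of the 10 genes, outside 1, with any peak at 4 and at the gene ends of 24 of the 87. H3K9bhb was then at 2 gene ends, inside 0, outside 1, with any peak at 2 and at 22 of the 87. H3K9ac was at 1 gene end, inside 0, outside 0, with any peak at 1 and at 15 of the 87. Wild type ENL without Y78A fell to 1 gene (CREB1) and wild type ENL with H3K9bhb to 2. These falls follow from shorter lists, most for H3K9ac. With −log10 q of at least 5, H3K9bhb was inside 2 genes, H3K9ac inside 3, and H3K9cr at 3 of the 87. With windows of 2500 bp, Y78A was inside 1, and H3K9ac was at 7 of the 10 gene ends, G6PC1 being added. With 50 kb outside the gene, wild type ENL was at 5 genes, Y78A at 3 and with any peak at 5, H3K9bhb at 5, and H3K9cr at 2 and with any peak at 2. With 10 kb, wild type ENL was at 1. Windows of 500 bp, summits in place of overlap and a common −log10 q minimum of 2.05 left the same genes at the gene ends in every list. With annotated starts only, which 7 genes have, wild type ENL and H3K9bhb were at 3, Y78A at 2 and H3K9ac at 4. A missing peak cannot be told apart from one below the depth of a library.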
